A study of Homo sapiens with 8 samples.

Results

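The cells were NCI-H1975, a long-established human line from a lung adenocarcinoma that carries a mutant EGFR. The comparison described here asks what alpelisib changes in these cells when osimertinib is already present. It uses 4 of the 8 arrays of the series, all from cells kept in RPMI1640 medium with 10% fetal bovine serum and treated for 24 hours. A pair of arrays carried 10 nM osimertinib alone, 1 without and 1 with 2 mM L-histidinol, and the other pair carried 10 nM osimertinib together with 1 µM alpelisib, again without and with 2 mM L-histidinol. The other 4 arrays (vehicle and 1 µM alpelisib, each without and with L-histidinol) enter the same fit and give the effect of alpelisib in the absence of osimertinib. In the text the arrays without L-histidinol are called the osimertinib array and the combination array, and their partners the L-histidinol + osimertinib array and the L-histidinol + combination array. Values listed in pairs give the array without L-histidinol before the array with it.

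Osimertinib binds mutant EGFR covalently and blocks its kinase. Alpelisib blocks the alpha isoform of phosphoinositide 3-kinase (PI3K), the lipid kinase that activates AKT and, through it, the growth kinase complex mTORC1. AKT holds FOXO transcription factors out of the nucleus, so FOXO target genes are commonly read as a sign of low PI3K activity, and several of them encode receptors and adaptors that feed back onto the pathway. PI3K and mTORC1 also promote ribosome, lipid and nucleotide synthesis and restrain autophagy and lysosome genes. L-histidinol is a histidine analog that blocks the charging of histidyl-tRNA and so imitates a lack of histidine.

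Expression was read as signal intensity per probe set, normalised by the authors, and analysed as log2. Tests covered 19775 genes, each read from a single probe set. The effect of adding alpelisib is the fitted log2 difference, both drugs minus osimertinib alone, over the array pairs without and with L-histidinol, given ± its standard error from a limma fit to all 8 arrays, and a gene was called at a Benjamini-Hochberg adjusted p below 0.05. Each condition had 1 array, and nothing in the labels says that arrays of different conditions came from separate cultures. The adjusted p-values therefore set a difference only against the departure of these arrays from additive effects of drug and L-histidinol. That spread is shared in part across genes and may be technical. Intensities compare a probe set with itself across arrays and not 1 gene with another.

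The arrays were alike in scale, with median intensities between 21.8 and 22.4. The ratio of 3′ to 5′ signal of ACTB is a measure of RNA integrity and labelling. It was 1.04 to 1.07 on the arrays without L-histidinol and 1.10 to 1.15 on those with it. On the arrays compared it was 1.06 and 1.15 with osimertinib alone and 1.04 and 1.10 with both drugs. The L-histidinol + osimertinib array had the highest ratio in the series. Whether these differences affected the calls was not tested. Epithelial markers were bright on the 4 arrays compared (EPCAM 4096 to 4637, KRT7 8448 to 9971, NKX2-1 383 to 801), as the labelled lung adenocarcinoma line would have them. Of 13 measured markers of blood, endothelial and fibroblast cells, 1 was called (LUM, intensity 4.49 to 7.50, close to the floor of the arrays). The summed intensity of the 13 markers was 1389 and 1003 with osimertinib alone and 1532 and 1136 with both drugs, and most of it was the collagen genes COL1A1 and COL1A2. Without these genes the sum was 221 and 212 with osimertinib alone and 221 and 203 with both drugs. PTPRC and LYZ, which define blood cells, stayed between 4.52 and 7.31.

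Promoters of some called genes are shown first, because members of the groups below share short sequence elements known from the literature on cell cycle and lysosomal genes. Promoter sequences are from RefSeq (GRCh38.p14), and 15384 of the tested genes matched the promoter table. Over the 250 bases before the start site, both strands were searched for the E2F site (TTTCCCGC or TTTGGCGC), the cell cycle homology region or CHR (TTTGAA or TTTAAA), a FOXO site (TGTTTAC) and the E-box CACGTG bound by TFEB and related factors. None of these letter strings contains another. An E2F match lay in 10 of 23 promoters of DNA replication genes (43.5%), in 2 of 20 promoters of mitosis genes (10.0%) and in 2.5% of all promoters. A CHR match lay in 16 of the 20 mitosis promoters (80.0%), in 0 of the 23 replication promoters and in 17.4% of all promoters. The E-box lay in 9 of 16 lysosome promoters (56.2%), in 4 of 20 mitosis promoters, in 4 of 23 replication promoters (17.4%) and in 7.8% of all. The FOXO site lay in 3 of 19 FOXO target promoters (15.8%), in 2 of 16 lysosome promoters (12.5%) and in 2.2% of all. A match describes letters in these windows and shows neither binding nor a cause.

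The 160 bases before the start site of 6 called genes are printed below, 2 from each of the replication, mitosis and lysosome groups, with the matched element of that group in capitals. They were chosen because they hold the element, and other called genes do not: MCM10 and POLE2 had no E2F match in 250 bases, TPP1 no E-box, and CCNG2, BCL6 and IRS2 no FOXO site. UHRF1 and PCNA carry an E2F match (as its reverse complement), PLK1 and CDC20 carry CHR matches, and CTSF and CTSA carry E-boxes.
UHRF1, chr19:4909341-4909500, plus strand: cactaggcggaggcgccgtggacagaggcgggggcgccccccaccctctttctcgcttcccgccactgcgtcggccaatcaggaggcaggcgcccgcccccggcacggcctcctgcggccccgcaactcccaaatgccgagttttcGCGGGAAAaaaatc
PCNA, chr20:5126623-5126782, minus strand: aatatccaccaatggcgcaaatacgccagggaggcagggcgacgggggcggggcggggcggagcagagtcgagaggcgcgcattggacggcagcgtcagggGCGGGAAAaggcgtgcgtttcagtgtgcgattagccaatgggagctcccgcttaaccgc
PLK1, chr16:23678729-23678888, plus strand: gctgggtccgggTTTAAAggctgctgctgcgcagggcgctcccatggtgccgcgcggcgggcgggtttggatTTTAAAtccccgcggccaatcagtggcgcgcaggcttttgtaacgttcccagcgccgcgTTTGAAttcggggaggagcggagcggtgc
CDC20, chr1:43358821-43358980, plus strand: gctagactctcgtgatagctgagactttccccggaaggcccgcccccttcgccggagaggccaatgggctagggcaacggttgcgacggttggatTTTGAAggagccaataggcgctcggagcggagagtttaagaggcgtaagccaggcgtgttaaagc
CTSF, chr11:66568607-66568766, minus strand: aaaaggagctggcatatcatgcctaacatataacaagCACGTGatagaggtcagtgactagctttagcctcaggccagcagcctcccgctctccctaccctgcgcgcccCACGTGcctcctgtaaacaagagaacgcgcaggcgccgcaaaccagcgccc
CTSA, chr20:45891175-45891334, plus strand: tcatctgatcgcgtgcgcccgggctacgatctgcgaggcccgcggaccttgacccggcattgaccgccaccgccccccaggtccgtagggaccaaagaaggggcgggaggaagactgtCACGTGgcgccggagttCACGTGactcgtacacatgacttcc

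When alpelisib was added to osimertinib, many genes of the cell cycle, nucleotide synthesis and ribosome biogenesis fell, and part of the FOXO targets, receptors and adaptors, and autophagy and lysosome genes rose. Of the 19775 genes, 2643 were called (13.4%), 1178 higher (5.96%) and 1465 lower (7.41%), and these shares are the background for each list below. The changes were modest: 61 of the called genes reached 2-fold, 41 of them higher and 20 lower, and the median over all genes was -0.01. All 2643 called genes had the same sign in the pair without L-histidinol and in the pair with it, against 68.1% of all genes, although the call itself favours genes that agree. Across all genes the differences of both pairs correlated at r = 0.59, which describes genes and not replicates. The count also depends on the treatment of spread: it was 1017 with no variance trend, 23 without the L-histidinol term and 5194 with all 2-way terms. The fit that gave 5194 had 1 residual degree of freedom and a variance prior of 103 degrees of freedom. It rests almost wholly on a spread shared across genes. The number called depends on single arrays too. The count was far lower without the osimertinib, the combination or the L-histidinol + osimertinib array, and changed little without the L-histidinol + combination array. Each of these fits leaves a single array in a drug treatment. That array is compared by way of the L-histidinol effect fitted over the remaining pairs, so the estimate changes as well as the spread. In all, 355 genes (1.8% of those tested), 164 higher and 191 lower, were called whichever of the 8 arrays was left out, and these are marked in the text as called in every such fit.

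**Figure D1:**
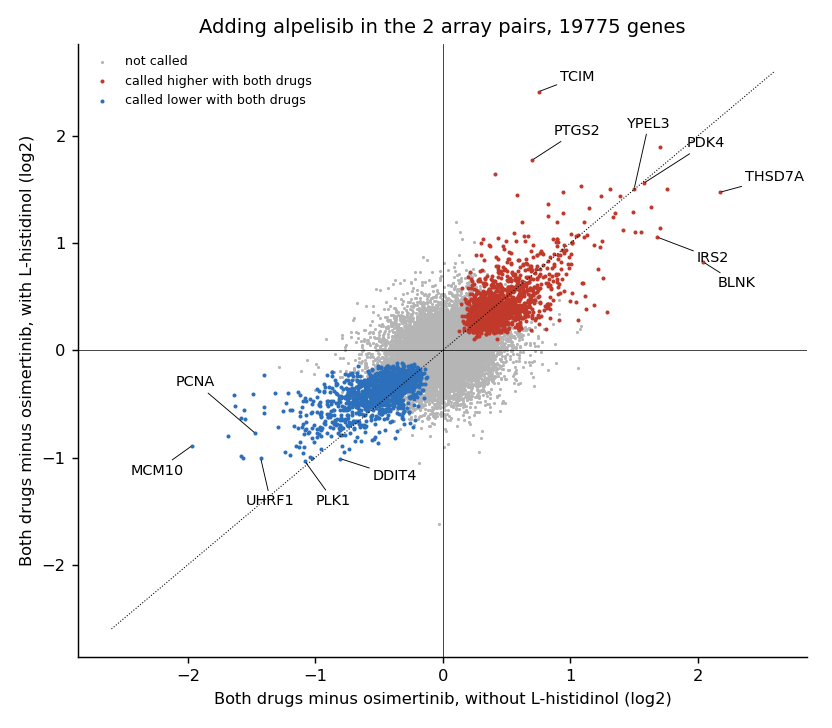
Log2 difference between both drugs and osimertinib alone in the array pair without L-histidinol (x axis) and in the pair with it (y axis), 1 point per gene for 19775 genes; red points were called higher, blue points lower, grey points were not called, and the dotted line marks equal differences. Called genes lie in the upper right and lower left, with MCM10 (-1.97 and -0.89) further from 0 in the pair without L-histidinol and TCIM (0.75 and 2.42) further in the pair with it.

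The largest rises mixed metabolic, signalling and poorly characterised genes. PDK4, the kinase that holds pyruvate out of the citric acid cycle, had intensities of 31.4 and 59.4 with osimertinib alone and 93.6 and 175 with both drugs. Both values with the combination lay above both without alpelisib, and the rise was 1.57 ± 0.27 (limma adjusted p = 0.00362). The call for PDK4 was lost without the osimertinib array. YPEL3, a growth-restraining zinc finger gene, was alike in both pairs, with 252 and 235 under osimertinib and 714 and 669 under both drugs. Its rise of 1.51 ± 0.08 (limma adjusted p = 1.8e-05) was the same size in both pairs (1.50 and 1.51).

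ATG9B, which encodes a lipid scramblase of autophagosome formation, measured 110.0 and 89.8 with osimertinib alone and 372 and 256 with both drugs. It rose by 1.63 ± 0.14 (limma adjusted p = 1.6e-04). THSD7A, a membrane protein with thrombospondin repeats, measured 22.7 and 60.7 and then 103 and 169, the largest rise of all at 1.83 ± 0.15. Its 2 osimertinib arrays lay well apart, yet both combination arrays lay above them. ITGB3, the beta-3 integrin, rose by 1.39 ± 0.18 from 104 and 127 to 293 and 309, and ANKRD33 rose by 1.42 ± 0.13. ATG9B, THSD7A, ITGB3 and ANKRD33 were called in every leave-one-out fit.

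MAFF, a small MAF factor of the immediate early kind, moved against the direction of osimertinib. Osimertinib alone left it at 104 and 94.7, the combination brought it to 257 and 268, and vehicle cells had 233 and 300. The rise on adding alpelisib was 1.41 ± 0.11 (limma adjusted p = 1.6e-04), beside a difference of -1.42 between osimertinib and vehicle, which shares the osimertinib arrays. The arrays with both drugs thus stood near the level of vehicle. The other large rises came from dim probe sets with a mean log2 below 5, where small absolute changes give large ratios: EFCAB13-DT (13.8 and 13.4 to 44.9 and 49.9), POU2F3 (8.27 and 6.33 to 25.6 and 15.98), BLNK, TMEM178A and TCIM. In TCIM the rise was 0.75 in the pair without L-histidinol and 2.42 in the pair with it, and its call was lost without the L-histidinol + osimertinib array.

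The 12 largest falls were nearly all genes of DNA replication and cell division. MCM10, a replication initiation factor, measured 95.4 and 44.3 with osimertinib alone and 24.4 and 23.9 with both drugs. The combination arrays were alike and lay below both others, so the fall was larger without L-histidinol (-1.97) than with it (-0.89), and the fitted change was -1.43 ± 0.19 (limma adjusted p = 0.00118). UHRF1, which carries DNA methylation through replication, went from 816 and 546 to 303 and 272 and fell by 1.22 ± 0.10 on the log2 scale. PCNA, the sliding clamp of DNA polymerases, went from 1467 and 904 to 529 and 528 and fell by 1.12 ± 0.13. RRM2, the inducible subunit of ribonucleotide reductase, went from 1589 and 834 to 542 and 534. These 4 genes have the same layout, with the osimertinib array highest and both combination arrays close together. The mitotic kinase gene PLK1 differed from them: 169 and 195 with osimertinib alone against 79.8 and 95.2 with both drugs, and differences of -1.08 and -1.04 in the pairs.

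The kinetochore gene SPC25 (-1.29 ± 0.17), the chromatin remodeller HELLS (-1.09 ± 0.09) and CHAC2 (-1.10 ± 0.09), a glutathione-degrading enzyme, were also called in every leave-one-out fit. EXO1, DTL and DSCC1 lost their calls without the osimertinib array. For CDCA7 and DSCC1 the value came from a probe set with a suffix (such as _s_at) that warns of possible cross-hybridisation, called a marked probe set below. Without such probe sets CDCA7 was at 0.03 in place of -1.28 and DSCC1 at -0.04 in place of -1.11, so the values of these genes rest on 1 probe set each. MCM10, RRM2 and DTL were also read from marked probe sets, and their values without such probe sets are not given here.

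**Figure D2:**
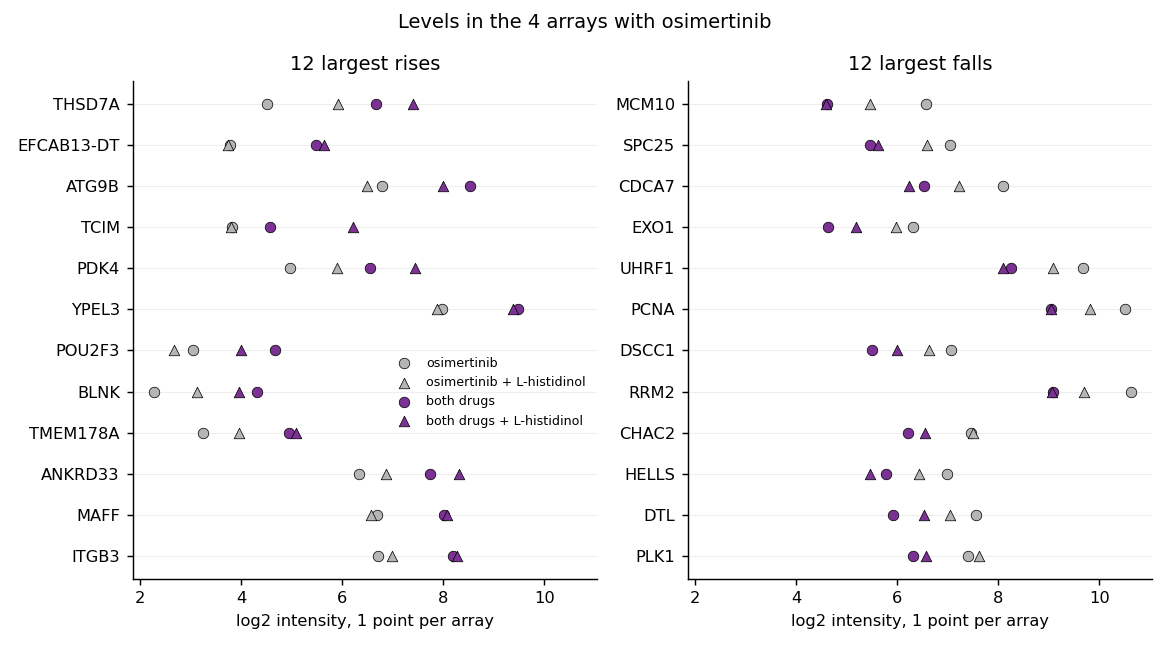
Log2 intensity of the 12 largest rises (left) and 12 largest falls (right), 1 point per array; grey marks osimertinib alone, purple both drugs, circles no L-histidinol and triangles 2 mM L-histidinol. For each of the 24 genes both purple points lie on the same side of both grey points. The genes were chosen for large differences of equal sign between these arrays, which favours that layout. For MCM10, PCNA and RRM2 the purple points nearly coincide while the grey points lie apart.

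Some genes of the upstream arm of the pathway rose. Of 17 receptor tyrosine kinases and adaptors 4 were called higher and 0 lower, with a median of 0.17 against -0.01 over all genes. IRS2, the adaptor that couples insulin and IGF receptors to PI3K, measured 207 and 459 with osimertinib alone and 665 and 955 with both drugs. Both combination arrays were the highest, and IRS2 rose by 1.37 ± 0.12 (limma adjusted p = 1.6e-04). GAB2, a docking protein that recruits PI3K, rose from 50.8 and 64.6 to 102 and 130 (1.01 ± 0.11). ERBB3, the receptor that binds PI3K most directly in this family, rose by 0.77 ± 0.07 from 772 and 723 to 1398 and 1167. INSR, the insulin receptor, rose by 0.64 ± 0.09 from 133 and 147 to 201 and 236. All 4 were called in every leave-one-out fit, and 7 members of the list were called without the vehicle array or without the L-histidinol array. EGFR itself was level, at 345 and 448 with osimertinib alone and 344 and 447 with both drugs. IGF1R (0.35), MET (0.17) and AXL (0.14) did not pass the test.

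The kinases and phosphatases of the pathway moved less. Of 28 measured components 7 were called higher and 0 lower, and the median was -0.08. SGK1, an AGC kinase that shares substrates with AKT, measured 282 and 195 with osimertinib alone and 399 and 395 with both drugs. Its rise was 0.76 ± 0.13 (limma adjusted p = 0.00332). PIK3IP1, a transmembrane inhibitor of PI3K, rose by 0.69 ± 0.12 from 120 and 101 to 204 and 154. RICTOR, the defining subunit of mTORC2, rose by 0.42 ± 0.07. The remaining calls were the catalytic subunit PIK3CD (0.44), the phosphatase INPP4B (0.41) and the mTORC1 inhibitors TSC2 (0.32) and TSC1 (0.30). AKT1 (-0.17), AKT2 (-0.17) and MTOR (-0.06) did not pass the test. These small changes rest on single arrays: 0 members were called without the L-histidinol + osimertinib array, 3 without the combination array, and 4 without the osimertinib array or without the L-histidinol + combination array. With all probe sets of a gene averaged, PIK3CD was at 0.10.

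Many FOXO targets rose. Of 24 measured members 14 were called higher and 0 lower, against 5.96% of all genes called higher, and 23 of the 24 values were above 0 with a median of 0.34. The medians were 0.39 in the pair without L-histidinol and 0.34 in the pair with it. Next to PDK4, TNFSF10, the death ligand TRAIL, rose most (1.27 ± 0.14), though from a dim probe set (16.3 and 18.1 to 43.4 and 39.4). The transcriptional repressor BCL6 rose by 0.66 ± 0.08 from 259 and 307 to 413 and 478. GADD45A, a stress-induced cell cycle inhibitor, went from 800 and 1195 to 1308 and 1743 and rose by 0.63 ± 0.07. The atypical cyclin CCNG2 went from 431 and 535 to 672 and 761 (0.57 ± 0.08). In each of these 4 genes both combination arrays lay above both osimertinib arrays. Here and in the lists below, genes were named by size of change or after their values were seen. That choice favours treatments that do not overlap, and the share of such genes over all genes is not given.

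KLHL24 (0.77 ± 0.17), KLF6 (0.52), the mitophagy kinase PINK1 (0.44), BCL2L11 (0.40) and the CDK inhibitor CDKN1B (0.32 ± 0.07) were called too. The transcripts of the factors themselves, FOXO1 (0.27), FOXO3 (0.06) and FOXO4 (0.07), did not pass the test. Counts fell to 8 without the osimertinib array, 7 without the combination array and 6 without the L-histidinol + osimertinib array. With all probe sets averaged BCL2L11 was at 0.16.

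The YPEL family, small zinc-binding proteins that rise in resting cells, had 4 of 5 members called higher, 1 of them (YPEL3) in every leave-one-out fit, and YPEL4, at 0.27, was not called. After YPEL3, YPEL1 rose by 0.97 ± 0.16 (32.5 and 41.3 to 77.8 and 65.8). YPEL2 rose by 0.59 ± 0.16 and YPEL5 by 0.36 ± 0.09. The family count was 2 without the combination array or without the L-histidinol + osimertinib array. Among 12 p53 targets 6 were called higher and 0 lower (median 0.37), led by TP53INP1 (1.05 ± 0.12), which also counts among the autophagy genes, and CDKN1A (0.62 ± 0.11), while MDM2, which p53 induces to limit itself, was at -0.02. The count was 2 without the osimertinib array, 3 without the combination array and 1 without the L-histidinol + osimertinib array.

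Part of the autophagy and lysosome genes rose by small steps. Of 18 autophagy genes 10 were called higher and 0 lower, with a median of 0.31. TP53INP1, which binds LC3 on autophagosomes, measured 121 and 98.6 with osimertinib alone and 243 and 210 with both drugs. GABARAPL1, an LC3 relative, measured 60.8 and 68.9 and then 109 and 110, a rise of 0.75 ± 0.11 (limma adjusted p = 0.0015). ZFYVE1, a marker of the membrane from which autophagosomes form, rose by 0.60 ± 0.09. These 3 genes were called in every leave-one-out fit and showed no overlap between the groups. The initiating kinases ULK1 (168 and 215 to 240 and 286, 0.47 ± 0.09) and ULK2 (0.41 ± 0.12) and the receptor SQSTM1 (0.35 ± 0.09) were called, and BECN1 (-0.07) and MAP1LC3B (0.05) were not. The count was 4 without the osimertinib array or without the L-histidinol + osimertinib array, 5 without the combination array, and 6 without the alpelisib array or without the L-histidinol + alpelisib array.

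Of 24 lysosome genes 11 were called higher and 1 lower, with a median of 0.16 and 5 values below 0. CTSF, a cysteine protease of the lysosome whose promoter is printed above, went from 399 and 346 to 749 and 640 and rose by 0.90 ± 0.07 (limma adjusted p = 1.6e-04). The sulfamidase SGSH rose by 0.61 ± 0.07 from 246 and 249 to 376 and 378. TPP1, a tripeptidyl peptidase, rose by 0.56 ± 0.08, and by 0.30 with no call when probe sets marked for cross-hybridisation were left out. CTSA, the protective protein of lysosomal sialidase, rose by 0.43 ± 0.08 from 2510 and 2419 to 3638 and 3040, and the protease CTSD by 0.38 ± 0.10. GLA, alpha-galactosidase, was the exception and fell by 0.48 ± 0.11 on the log2 scale. Genes for the regulators TFEB (0.10), TFE3 (0.16) and MITF (-0.06) did not pass the test, and none of 4 proton pump genes in the list did. The count of rises was 4 without the osimertinib array or without the L-histidinol + osimertinib array and 5 without the combination array.

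**Figure D3:**
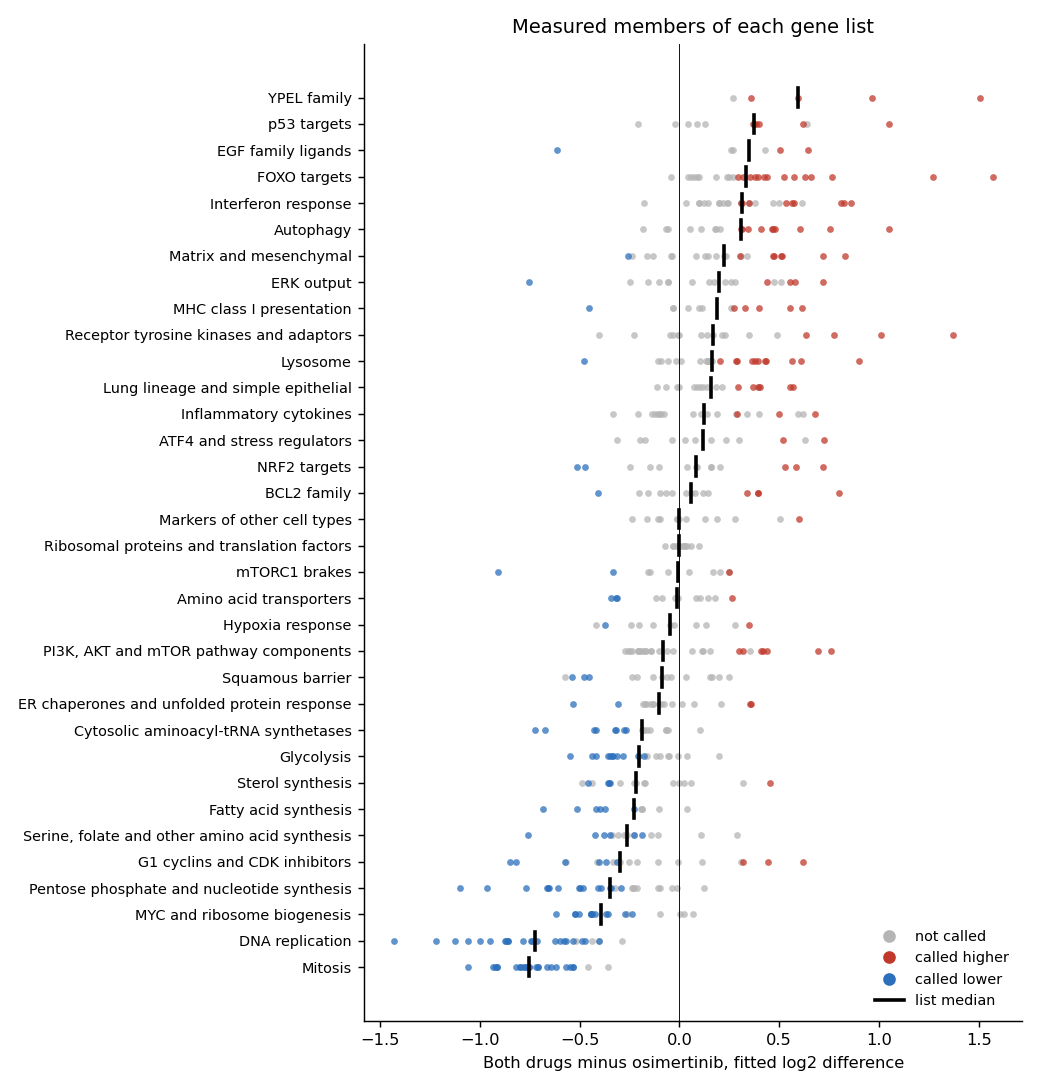
Fitted log2 difference, both drugs minus osimertinib alone, for every measured member of the 34 gene lists, 1 point per gene; red was called higher, blue lower and grey not called, and the black bar is the list median. Mitosis (-0.75) and DNA replication (-0.72) have the lowest medians and YPEL genes (0.59), p53 targets (0.37) and FOXO targets (0.34) are among the highest, while ribosomal proteins stand at 0.

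Most DNA replication genes fell. Of 26 measured members 22 were called lower and 0 higher, against 7.41% of all genes called lower, and all 26 values were below 0 with a median of -0.72. Of the 6 subunits of the replicative helicase, MCM2 to MCM6 fell and MCM7 was not called (-0.28). MCM5 went from 574 and 261 to 230 and 198 (-0.86 ± 0.16), and MCM3 from 441 and 284 to 192 and 194 (-0.88 ± 0.13). The loader of that helicase, CDC6, fell by 1.06 ± 0.18 on the log2 scale from 154 and 94.7 to 52.3 and 64.5. In all 3 genes the osimertinib array was the highest and the combination arrays did not overlap with the osimertinib arrays. All 26 members had the larger fall in the pair without L-histidinol, where the median was -0.96 against -0.44 in the pair with it. CDT1 (-0.40), CHAF1B (-0.44) and GINS4 (-0.52) did not pass the test. The number called was 6 without the osimertinib array and 14 without the L-histidinol + osimertinib array.

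Genes of nucleotide supply were called lower in the main. Of 25 genes of the pentose phosphate pathway and nucleotide synthesis 15 were called lower and 0 higher, with a median of -0.35. Thymidylate synthase, TYMS, went from 964 and 422 to 365 and 293 and fell by 0.96 ± 0.17 on the log2 scale, and thymidine kinase, TK1, fell by 0.77 ± 0.11. Among de novo purine enzymes GART went from 393 and 531 to 256 and 350 (-0.62 and -0.60 in the pairs), and PAICS from 908 and 883 to 540 and 599 (-0.75 and -0.56 in the pairs). In the list, 21 of 25 members had a lower difference in the pair without L-histidinol than in the pair with it. CTPS1, which makes CTP, fell by 0.66 ± 0.13, and CAD, which starts pyrimidine synthesis, fell by 0.39. The pentose phosphate enzymes PGD (-0.11), TALDO1 (-0.01) and TKT (0.12) did not pass the test. The count was 7 without the osimertinib array, 9 without the combination array and 8 without the L-histidinol + osimertinib array.

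Most mitosis genes fell too. Of 25 members 23 were called lower and 0 higher, with a median of -0.75, and all 25 values were below 0. The medians were -0.80 without L-histidinol and -0.63 with it, and 23 of the 25 members had the larger fall without it. CDK1, the kinase that drives entry into mitosis, went from 621 and 696 to 305 and 394 and fell by 0.93 ± 0.15 on the log2 scale (limma adjusted p = 0.00272). Its partners CCNA2 (231 and 277 to 111 and 162, -0.92 ± 0.15) and CCNB1 (1400 and 1818 to 802 and 1120, -0.75 ± 0.13) fell alongside. MKI67, the proliferation antigen, went from 318 and 325 to 182 and 210 (-0.72 ± 0.16). In these genes the array with L-histidinol was the higher of each treatment, and the treatments did not overlap. The replication genes had the opposite order with osimertinib alone (median log2 intensities 7.88 and 7.45), but not with both drugs (6.88 and 6.96).

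AURKA (-0.94 ± 0.18) and KIF23 (-0.92 ± 0.16) depended on marked probe sets and were at -0.17 and -0.37 without them. The number of mitosis genes called was 12 without the combination array and 2 without the L-histidinol + osimertinib array, 14 with all probe sets averaged and 15 without marked probe sets. PLK1 was called in every leave-one-out fit. Fewer dividing cells and less transcript per dividing cell cannot be told apart in these bulk samples.

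At the G1 control point 6 of 19 genes were called lower and 3 higher. CDC25A, the phosphatase that activates CDK2, fell by 0.85 ± 0.11 on the log2 scale from 79.2 and 56.4 to 40.8 and 33.8. CCNE2 went from 125 and 46.5 to 47.4 and 39.7, with most of its fall in the pair without L-histidinol (-1.40 against -0.23). CDK2 (-0.57), E2F1 (-0.40), CCND3 (-0.37) and CDK4 (-0.31) also fell. The CDK inhibitors CDKN1A (488 and 456 to 722 and 724), CDKN1C (0.44) and CDKN1B (0.32) rose. CCND1, cyclin D1, had a value of -0.57 ± 0.17 that missed the threshold (limma adjusted p = 0.0535): its intensities of 276 and 178 with osimertinib alone and 183 and 122 with both drugs overlapped. The count of falls was 1 without the osimertinib array, 2 without the combination array, and 3 without the alpelisib, the L-histidinol + osimertinib or the L-histidinol + alpelisib array.

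Many genes for making ribosomes fell, and no gene of the ribosome itself was called. Of 18 genes for MYC and ribosome biogenesis 13 were called lower and 0 higher, with a median of -0.40. The nucleolar factor NOP16 went from 637 and 653 to 352 and 502 (-0.62 ± 0.13). NOP2, an rRNA methyltransferase, fell by 0.52 ± 0.12 on the log2 scale from 183 and 234 to 126 and 164. POLR1B, the second largest subunit of RNA polymerase I, fell by 0.52 ± 0.09, and was at -0.25 with no call when marked probe sets were left out. MYC was level at 1168 and 1813 with osimertinib alone and 1143 and 1911 with both drugs (0.02 ± 0.07). Of 15 ribosomal protein and translation factor genes 0 were called, and their values ran from -0.07 to 0.10. The biogenesis count was 3 without the osimertinib array or without the combination array and 0 without the L-histidinol + osimertinib array.

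Amino acid supply and tRNA charging moved down in part. Of 17 cytosolic aminoacyl-tRNA synthetases 8 were called lower and 0 higher, with a median of -0.19. VARS1, which charges valine, fell by 0.67 ± 0.08 from 337 and 363 to 214 and 226. HARS1, the histidyl-tRNA synthetase that L-histidinol competes for, fell by 0.32 ± 0.07 from 628 and 555 to 465 and 480 (limma adjusted p = 0.0125). FARSB read -0.72, but -0.03 without marked probe sets. PSAT1, the aminotransferase of serine synthesis, fell by 0.76 ± 0.07. Its intensities of 785 and 2584 with osimertinib alone and 451 and 1573 with both drugs overlap across the treatments, being higher with L-histidinol, while the fall was alike in both pairs (-0.80 and -0.72).

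Of 15 genes of serine, folate and amino acid synthesis 6 were called lower and 0 higher. ASNS, asparagine synthetase, was not called (-0.04 without L-histidinol and -0.48 with it). Transporters changed little, with 3 of 12 called lower (SLC7A1, SLC1A5 and SLC7A5, each between -0.34 and -0.31) and SLC38A2 higher by 0.26. Without the osimertinib array 3 synthetases, 2 synthesis genes and 1 transporter were called lower, and without the L-histidinol + osimertinib array 2, 2 and 0.

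Among the stress regulators downstream of a lack of amino acids, 2 of 12 were called higher. PPP1R15A, which restores translation after stress, rose by 0.52 ± 0.13. ATF3 rose by 0.72 ± 0.08 by its brightest probe set and was at -0.03 (limma adjusted p = 0.921) without marked probe sets, so its direction is not settled. ATF4 itself was at 0.23 and DDIT3 at 0.30, with no call. The count was 1 without the osimertinib, the combination or the L-histidinol + osimertinib array, 4 without the vehicle or the L-histidinol array and 6 without the L-histidinol + combination array.

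DDIT4, the stress-induced inhibitor of mTORC1 also known as REDD1, fell in both pairs. It measured 727 and 2078 with osimertinib alone and 417 and 1031 with both drugs, so the arrays with L-histidinol were the higher within each treatment and the treatments overlap. Within the pairs the differences were -0.80 and -1.01, and the fitted fall was 0.91 ± 0.09 on the log2 scale (limma adjusted p = 3.5e-04), called in every leave-one-out fit. The same value against vehicle for alpelisib alone was -0.90 ± 0.09, and for osimertinib alone -0.12. The remaining mTORC1 brakes moved little: NPRL3 (-0.33) was called lower and FNIP1 (0.25) higher, each lost in most leave-one-out fits, and SESN2 was at -0.16. Leaving out any of 6 arrays, all except the vehicle and L-histidinol arrays, left 1 of the 2 falls.

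Part of the glycolysis genes fell slightly. Of 20 members 11 were called lower and 0 higher, with a median of -0.20. GPI, the isomerase after hexokinase, went from 1285 and 1159 to 932 and 746 (-0.55 ± 0.08), and PGAM1 from 4434 and 3045 to 3028 and 2431 (-0.44 ± 0.06). Pyruvate kinase, PKM, went from 3230 and 2827 to 2689 and 1901 (-0.42 ± 0.09). In all 3 genes the treatments did not overlap, and the array with L-histidinol was the lower within each treatment. The glucose transporter SLC2A1 was at -0.12 with no call. Of 11 hypoxia genes 1 was called each way, P4HA1 (-0.37) and KDM3A (0.35). The glycolysis count was 5 without the osimertinib or the L-histidinol + osimertinib array and 7 without the alpelisib, the combination or the L-histidinol + alpelisib array. KDM3A lost its call without the osimertinib, the combination or the L-histidinol + osimertinib array, and 2 hypoxia genes were called higher without the L-histidinol + combination array.

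Some fatty acid synthesis genes fell. Of 11 members 6 were called lower and 0 higher, with a median of -0.23. SCD, the desaturase that makes oleate, went from 1267 and 851 to 777 and 538 and fell by 0.68 ± 0.10 on the log2 scale (limma adjusted p = 0.00215). ACACA, acetyl-CoA carboxylase, fell by 0.51 ± 0.07 from 400 and 369 to 288 and 253. SREBF1, the transcription factor of this branch, fell by 0.42 ± 0.12 from 63.4 and 63.5 to 46.6 and 48.6. FASN read -0.40, and -0.11 with all its probe sets averaged. The count was 2 without the osimertinib or the L-histidinol + osimertinib array and 3 without the combination array.

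The sterol branch was mixed. Of 17 members 4 were called lower (EBP, IDI1, FDPS and STARD4) and 1 higher (LSS, lanosterol synthase, 0.45 ± 0.10), and the median was -0.38 in the pair without L-histidinol and -0.08 in the pair with it. The falls were 0 in number without the osimertinib or the combination array, and IDI1 was at -0.04 without marked probe sets. SREBF2, the factor of this branch, was at -0.03.

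Transcripts that report ERK activity moved both ways. Of 18 members 4 were called higher and 1 lower, 12 values were above 0, and the median was 0.20. SPRY1 (20.4 and 27.1 to 35.9 and 41.9, 0.72 ± 0.12), the phosphatase DUSP4 (41.7 and 47.1 to 59.1 and 74.2, 0.58 ± 0.10) and IER3 (0.55 ± 0.07) rose, as did DUSP5 (0.44). These values sit far below vehicle for DUSP6, the phosphatase most tightly tied to ERK: 15.8 and 16.03 with osimertinib alone, 19.8 and 24.7 with both drugs, and 177 and 363 with vehicle. Its difference on adding alpelisib was 0.47 ± 0.18 (limma adjusted p = 0.121). FOSL1, an AP-1 subunit that depends on ERK, went on falling, from 240.0 and 148 to 130 and 96.0 (-0.75 ± 0.09), beside 1594 and 1227 in vehicle. The rises counted 2 without the L-histidinol + osimertinib array.

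Of 6 ligands of the EGF family, HBEGF (0.65 ± 0.18) and EREG (0.50 ± 0.13) were called higher and NRG1, a ligand of ERBB3, lower (138 and 111 to 79.5 and 82.5, -0.61 ± 0.10). With all probe sets averaged HBEGF was at 0.15 and NRG1 at -0.12, with no call. The rises counted 1 without the osimertinib, the alpelisib, the combination or the L-histidinol + alpelisib array and 0 without the L-histidinol + osimertinib array.

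Some interferon-stimulated genes rose. Of 26 members 9 were called higher and 0 lower, 25 values were above 0, and the medians were 0.45 without L-histidinol and 0.19 with it. IRF7, the factor that amplifies the response, went from 407 and 553 to 867 and 855 and rose by 0.86 ± 0.14 (limma adjusted p = 0.00306), called in every leave-one-out fit. IFI44L (192 and 433 to 469 and 554) and OAS2 (94.2 and 160 to 215 and 215) rose by 0.82 ± 0.22 and 0.81 ± 0.19, and OAS2 was at 0.32 with all probe sets averaged. For IFI44L and OAS2 the osimertinib array was the lowest and the other 3 lay closer together. The count was 1 without the osimertinib or the combination array, 2 without the L-histidinol + osimertinib array and 14 without the L-histidinol + combination array.

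Of 12 genes of MHC class I presentation 5 were called higher and 1 lower (TAP2, -0.45, and -0.14 with no call without marked probe sets). HLA-E rose by 0.55 ± 0.06 from 1255 and 1393 to 1790 and 2105, and NLRC5, the activator of class I genes, by 0.61 ± 0.12. The peptide transporter TAP1 (0.26) and B2M (0.11) did not pass the test. The count of rises was 1 without the osimertinib or the combination array and 2 without the L-histidinol + osimertinib array. Among 20 inflammatory genes 3 inhibitors or subunits of NF-kappaB signalling were called higher, TNFAIP3 (0.68 ± 0.15), RELB (0.50 ± 0.13) and NFKBIA (0.29 ± 0.08), and CXCL8 (0.62) and IL6 (0.59) were not called. That count was 0 without either L-histidinol array of the comparison.

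In the BCL2 family 4 of 15 genes were called higher and 1 lower. BMF, a BH3-only killer protein, went from 69.0 and 67.0 to 128 and 110 and rose by 0.80 ± 0.11 (limma adjusted p = 0.00126), called in every leave-one-out fit. BCL2L11, which encodes BIM, went from 302 and 387 to 414 and 488 (0.40 ± 0.08). PMAIP1 (0.34) and HRK (0.40) rose and BID fell (-0.41). The survival genes MCL1 (0.14), BCL2L1 (0.12) and BCL2 (-0.04) did not pass the test. The count was 1 without the osimertinib or the L-histidinol + osimertinib array and 2 without the combination array.

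Lung lineage and simple epithelial genes had 6 of 18 called higher and 0 lower. NKX2-1, the lung lineage factor, went from 557 and 383 to 801 and 574 and rose by 0.55 ± 0.12 (limma adjusted p = 0.0116). It was lower with L-histidinol in both treatments. The tight junction genes CLDN3 (0.57), CLDN4 (0.41) and CLDN7 (0.29), the mucin MUC1 (0.39) and ELF3 (0.37) rose too. The count was 0 without the osimertinib array, 3 without the combination array and 1 without the L-histidinol + osimertinib array. Of 15 squamous genes 3 were called lower (S100A9, SPRR3 and SPRR1B), all lost without the osimertinib or the combination array. The count was 1 without the alpelisib, the L-histidinol + osimertinib or the L-histidinol + alpelisib array.

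In the matrix and mesenchymal list 7 of 21 genes were called higher and 1 lower. The YAP targets CCN2 (134 and 96.9 to 198 and 207, 0.83 ± 0.14) and CCN1 (2009 and 2039 to 2766 and 3009, 0.51 ± 0.07) rose, as did fibronectin, FN1 (0.51 ± 0.06). The count was 2 without the L-histidinol + osimertinib array. Of 14 NRF2 targets 3 were called higher, AKR1C3, ABCC3 and AKR1C1, and 2 lower, GCLM (-0.51 ± 0.07) and AKR1B10. ABCC3 read 0.05 without marked probe sets. That count of rises was 1 without the combination array and 0 without the L-histidinol + osimertinib array. Of 17 chaperone and unfolded protein response genes 2 were called higher, HERPUD1 and DNAJB9, and 2 lower, SDF2L1 and HYOU1. The 2 rises were lost without the osimertinib, the combination, the L-histidinol + osimertinib or either alpelisib-only array.

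Whether the effect of alpelisib differed between cells without and with L-histidinol was tested as an interaction, averaged over the arrays without and with osimertinib. The test therefore does not isolate the effect on top of osimertinib, and opposite changes in the 2 backgrounds can cancel. For the replication genes the medians without and with L-histidinol were -0.96 and -0.44 with osimertinib present, and -0.29 and -0.42 in its absence. For the interferon genes they were 0.45 and 0.19 with osimertinib present, and 0.22 and -0.13 in its absence. These medians were thus lower with L-histidinol in both backgrounds. By limma with Benjamini-Hochberg adjustment 0 of 19775 genes were called (0%), and 998 had an unadjusted p below 0.05. With the variance prior of that fit itself the number was 278, a prior of 103 degrees of freedom drawn from a fit with 1 residual degree of freedom. Among the 2643 genes called for adding alpelisib to osimertinib, 1793 had the larger difference in the pair without L-histidinol. These were 1116 of the 1465 falls and 677 of the 1178 rises. The median size over called genes was 0.44 without L-histidinol and 0.38 with it. With 1 array per condition, that difference in size cannot be told apart from differences between the 4 individual arrays.

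The same addition of alpelisib without osimertinib can be read from the other 4 arrays, which enter the comparison above only through the shared L-histidinol term and the spread. Alpelisib against vehicle called 2267 genes (11.5%). Of the 2643 genes called for adding alpelisib to osimertinib, 2509 (94.9%, against 66.7% of all genes) had the same sign there, 1246 were called there in the same direction, and 7 in the opposite direction. The shared calls were 47.1% of the calls with osimertinib and 55.0% of those without. Over the 2643 genes the median size was 0.41 with osimertinib and 0.30 without, a comparison that favours the contrast in which the genes were chosen. List medians with and without osimertinib can be set side by side. The median of the replication genes was -0.72 with osimertinib and -0.34 without, that of the mitosis genes -0.75 and -0.35, that of the FOXO targets 0.34 and 0.40, and that of the YPEL genes 0.59 and 1.09. Sterol genes had medians of -0.22 and 0.10. None of these differences between lists was tested.

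**Figure D4:**
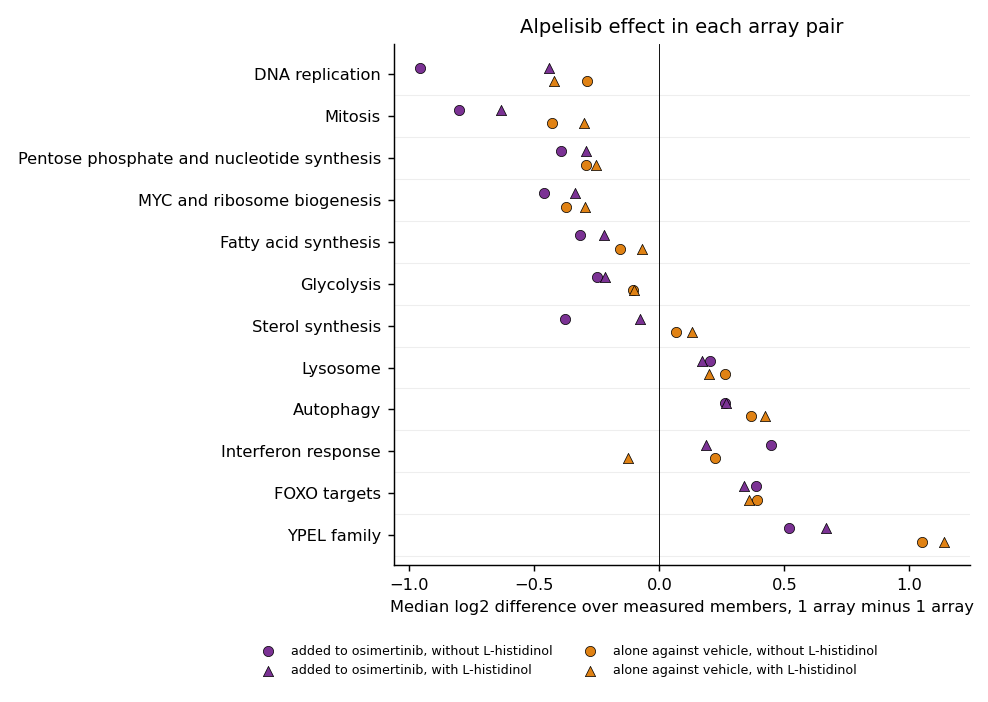
Median log2 difference over the measured members of 12 gene lists in single array pairs; purple is alpelisib added to osimertinib, orange is alpelisib against vehicle, circles are pairs without and triangles pairs with L-histidinol. DNA replication lies at -0.96 and -0.44 with osimertinib and at -0.29 and -0.42 without it, and the YPEL family at 0.52 and 0.67 with osimertinib and 1.05 and 1.14 without it.

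Tested gene by gene, the alpelisib effect with osimertinib minus the effect without it was called in 6 of 19775 genes (0.0303%), and 1748 genes had an unadjusted p below 0.05. In 5 of them alpelisib raised the gene in the absence of osimertinib and did less in its presence. MB, the gene of myoglobin, went from 289 and 250 in vehicle to 420 and 452 with alpelisib, but from 801 and 827 with osimertinib to 635 and 579 with both drugs. Its effect was therefore 0.70 ± 0.09 without osimertinib and -0.42 ± 0.09 with it, and the difference of -1.12 passed the test (limma adjusted p = 0.00704). This is the 1 gene of the 6 in which alpelisib was called in opposite directions.

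CCN5, a secreted relative of CCN2, went from 549 and 537 to 1702 and 1399 with alpelisib alone and from 3599 and 3322 to 5494 and 4739 when alpelisib was added to osimertinib (1.51 ± 0.07 and 0.56 ± 0.07). FBXO32, a ubiquitin ligase and FOXO target, went from 598 and 724 to 1460 and 1777 and from 2466 and 2750 to 3256 and 3403 (1.29 ± 0.07 and 0.35 ± 0.07). In both genes every value with alpelisib was above its partner without it, and the step from osimertinib to the combination was the smaller. SMIM14, a small membrane protein, rose with alpelisib alone (563 and 532 to 1020.0 and 1050.0) and stayed at 1442 and 1506 against 1537 and 1521 with osimertinib present. The adaptor AFAP1L2 showed the same layout, with 0.86 ± 0.08 without osimertinib and -0.06 ± 0.08 with it.

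NME1, a nucleoside diphosphate kinase, is the gene in which alpelisib did more with osimertinib present. It went from 4410 and 4722 to 3482 and 3540 with alpelisib alone (-0.38 ± 0.06), and from 2799 and 3188 to 1374 and 1588 when added to osimertinib (-1.02 ± 0.06). The difference was -0.64 (limma adjusted p = 0.028), and the fall with osimertinib was called in every leave-one-out fit. The count of 6 rests on single arrays: it was 0 without the osimertinib, the alpelisib, the L-histidinol + osimertinib or the L-histidinol + alpelisib array, 11 without the combination array, 15 without the L-histidinol array and 68 without the L-histidinol + combination array.

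**Figure D5:**
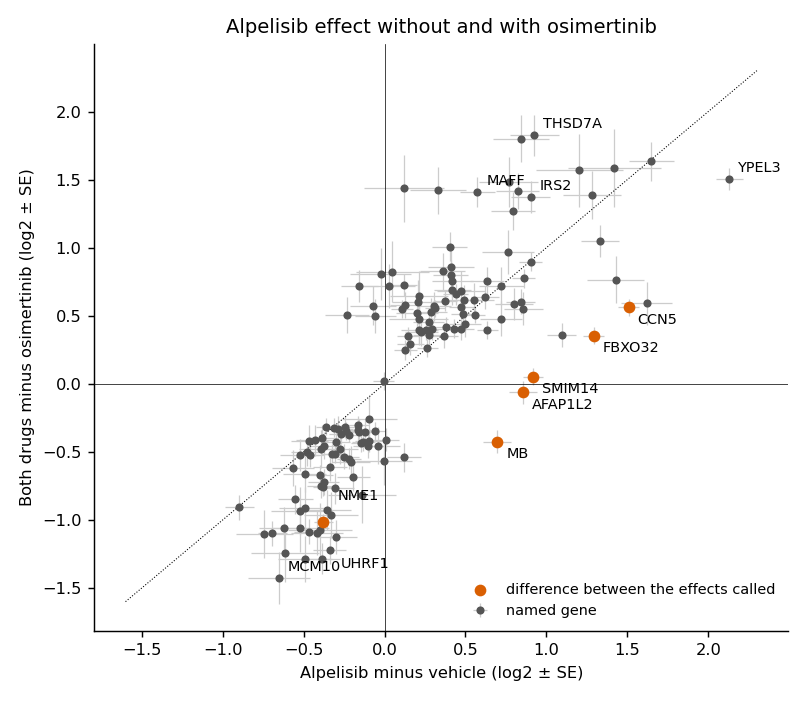
Fitted log2 effect of alpelisib without osimertinib (x axis, alpelisib minus vehicle) and with it (y axis, both drugs minus osimertinib) for the named genes, ± standard error; the dotted line marks equal effects and orange points are the 6 genes in which the difference was called. MB, AFAP1L2, SMIM14, FBXO32 and CCN5 lie below the line on the right, NME1 below it on the left, and THSD7A (0.93 and 1.83) and UHRF1 (-0.34 and -1.22) also lie off the line without a call.

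For genes of feedback and the cell cycle the effects with and without osimertinib are given side by side, and none of their differences was called (limma adjusted p from 0.0835 for UHRF1 to 0.982 for INSR). ERBB3 rose by 0.77 with osimertinib and 0.86 without, INSR by 0.64 and 0.62 and IRS2 by 1.37 and 0.90. PCNA was at -1.12 with osimertinib and -0.30 ± 0.13 without (limma adjusted p = 0.165 for the latter), and UHRF1 at -1.22 and -0.34. YPEL3 rose by 1.51 and 2.13. For orientation, osimertinib against vehicle, which shares the osimertinib arrays with this comparison, gave 1.17 for ERBB3, 0.37 for IRS2, -1.05 for PCNA, -1.35 for UHRF1 and 2.20 for YPEL3.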

How the data were processed

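Gene expression was measured on Affymetrix U133 Plus 2.0 arrays, 8 in all, 1 per condition. The values are probe set intensities on a linear scale, normalised with RMA and the affy package by the authors per the submitters' processing notes, with versions not given in the sources used here. RMA gives all arrays nearly the same distribution, so a change in total RNA would not be visible.

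The deposited intensities were turned into log2 values. Of 54675 probe sets 62 controls were left out, 41091 carried 1 symbol in the platform annotation, 1801 several and 11721 none, and 41037 matched a RefSeq gene. Each gene was represented by its probe set with the highest mean over all arrays, which left 19775 genes, 9252 of them with a single probe set.

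Differences were tested with limma 3.58.1 in R 4.3.3. The model had 4 drug levels and an additive L-histidinol term, which pairs the arrays by L-histidinol status, and used a variance trend and Benjamini-Hochberg adjustment over all genes (3 residual degrees of freedom, prior 8.08). The alpelisib effect with minus without osimertinib was a contrast of that fit. The interaction of alpelisib with L-histidinol was tested in a model that adds every 2-way term, which has 1 residual degree of freedom. The test used the variance prior of the additive fit and averages over the arrays without and with osimertinib. The scripts were tested on simulated data. Remaining steps used Python 3.11.15, numpy 2.4.6, pandas 2.3.3 and matplotlib 3.10.9.

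The genes named are the 12 largest rises and falls, up to 4 called members of each of 34 gene lists, the genes called in the tests of difference and 12 further genes of the pathway and treatment. Further list members are named as examples chosen after their values were seen. Choosing genes by size of change favours those whose treatments do not overlap, and the share of such genes over all genes is not given. Of 619 distinct genes in the lists 569 were measured. The lists and the comparison were chosen with earlier results of these data known, so they give no independent support.

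Alternatives were other normalisations, an offset of 16, a log2 minimum of 5, averaged probe sets, removal of probe sets marked for cross-hybridisation (suffixes _s_at, _x_at and _a_at), no variance trend, other model terms, the 4 arrays alone, and leaving out each array.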

Additional observations from a re-analysis of the deposited data

Results flagged for a closer look

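6 genes drew attention because the effect of alpelisib in the presence of osimertinib differed from its effect without it, by limma's test of the difference adjusted over 19775 genes. The differences, effect with osimertinib minus effect without it on the log2 scale, were -1.12 for MB (limma adjusted p = 0.00704), -0.95 for CCN5, -0.94 for FBXO32 and -0.86 for SMIM14 (each limma adjusted p = 0.00503), and -0.92 for AFAP1L2 and -0.64 for NME1 (each limma adjusted p = 0.028). In MB, AFAP1L2, SMIM14, FBXO32 and CCN5 both osimertinib arrays already stood above both vehicle arrays, and in NME1 both stood below them. Each difference rests on 8 arrays with 1 per condition.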

How the results depend on the processing

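The number of genes called for adding alpelisib to osimertinib, 2643, became 1646 with all probe sets of a gene averaged, 1017 with no variance trend and 23 without the L-histidinol term. It became 5194 with all 2-way terms and that fit's own variance prior of 103 degrees of freedom. It ran from 508 to 3271 over fits that each left out 1 array. Under the other alternatives (median-centred arrays, quantile normalisation, an offset of 16, a log2 minimum of 5, no marked probe sets, the 4 arrays alone) it ran from 1811 to 3519, and the share of higher calls was 44.6% as reported and 41.9% after median-centring. The number of genes whose alpelisib effect, averaged without and with osimertinib, differed by L-histidinol was 278 with that fit's own prior in place of 0. Leaving out an array could not be fitted there, since no residual degrees of freedom remain. The 6 genes that differed with osimertinib became 0 with averaged probe sets, 13 without marked probe sets, 0 with no variance trend and 0 to 68 when 1 array was left out. Of 147 named genes, CDCA7 (0.027) and ATF3 (-0.032) changed sign without marked probe sets. No other named gene changed sign under an alternative if it was called there or in the main fit. Sign changes of genes called in neither fit were not counted. The calls of 38 were lost with averaged probe sets, 21 without marked probe sets, 56 with no variance trend and 133 without the L-histidinol term. In the leave-one-out fits 73 were lost without the L-histidinol + osimertinib array, 66 without the osimertinib array and 51 without the combination array. The cause was not tested. No paired analysis was possible because the labels give no replicate numbers, with 1 array per condition; the pairing by L-histidinol status is part of the model. Depth has no equivalent on arrays, and 164 of the called genes had a mean log2 below 5.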

Other observations

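When alpelisib was added to osimertinib, many but not all subunits of several large protein machines outside the lists above were called lower. The families were chosen by symbol after values were seen, so their counts are a description, and they were read over 11627 genes with a mean log2 of at least 5, of which 12.1% were called lower and 9.2% higher. Of 21 subunits of the mitochondrial import complexes (TIMM and TOMM genes) 15 were called lower, with a median of -0.33 and the lowest value in TIMM8A (-0.81). Of 72 mitochondrial ribosomal proteins 35 were called lower, with a median of -0.25, while the cytosolic ribosomal proteins were level. The RNA exosome had 7 of 10 EXOSC genes called lower (EXOSC8 -0.70), and the CCT chaperonin, which folds actin and tubulin, had 6 of 8 (CCT5, 2301 and 2170 to 1520.0 and 1697). All 5 beta tubulin genes measured were called lower, with TUBB4B going from 3335 and 2649 to 2031 and 1841 (-0.62 ± 0.07), although beta tubulins are similar enough in sequence to share probes. In the proteasome 10 of 16 core genes and 9 of 17 regulatory genes were called lower. Single members lay above 0 without a call, among them MRPL10 (0.27), PSMB10 (0.19) and CCT6B (0.39).

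Some families rose. Of 7 metallothioneins 6 were called higher with a median of 0.26, from bright probe sets such as MT2A (9148 and 8092 to 10263 and 9678). All 7 pregnancy-specific glycoprotein genes were called higher, with a median of 0.71, and had a median of 1.05 for alpelisib against vehicle. Both families consist of near-identical paralogs, so their members cannot be counted separately. Of 12 claudins 5 were called higher, CLDN1 by 1.21.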
